A study of Mus musculus with 12 samples.

Results

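The genes described here are the D-type cyclins CCND1, CCND2 and CCND3, the kinases CDK4 and CDK6, the CDK inhibitors CDKN1A, CDKN1B, CDKN1C and CDKN2B, and the retinoblastoma gene RB1. These 10 genes were taken by their full names from a table of 58735 genes, and all 10 were high enough to be among the 17538 genes tested. RNA had been sequenced from U2OS cells, a human osteosarcoma line, in 4 groups of 3 libraries. The groups were untreated (blank) cells, cells given siSRSF1-2 or siSRSF1-3, which are siRNAs against the splicing factor SRSF1, and cells made to overexpress the long non-coding RNA LINC01134 (OE-LINC01134). No library of cells with a control siRNA or a control construct is among the samples, so each difference from blank also holds the effect of the transfer itself. The study speaks of biological replicates and experimental repeats without saying whether they were separate cultures. Its supplementary methods name fewer biological replicates per condition than the 3 libraries of each group here. The p-values measure the spread between these libraries, which may be technical. The labels name the mouse as organism, but the genes carry human Ensembl identifiers and were treated as human.

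The D-type cyclins are made when growth signals reach a cell. They bind and switch on CDK4 and CDK6, which phosphorylate the retinoblastoma protein, and this frees the E2F factors to transcribe the genes of DNA replication. The INK4 inhibitors, among them the p15 protein of CDKN2B and the p16 protein of CDKN2A, bind CDK4 and CDK6 directly, while the CIP/KIP inhibitors p21 (CDKN1A), p27 (CDKN1B) and p57 (CDKN1C) bind cyclin-CDK complexes and act mainly on CDK2. This axis is altered in many osteosarcomas.

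Levels are given as FPKM, the fragments read from a gene relative to its length in kilobases and to sequencing depth, which allows genes of different length to be compared. Fold changes were fitted with limma on log2(FPKM + 0.1), and a gene was called when its Benjamini-Hochberg adjusted p was under 0.05 and its log2 fold change was over 1 in either direction. Fold changes of low genes are understated on that scale. Between 26237763 and 32954539 reads fell on genes in each library. The targets followed their labels: SRSF1 lay between 19.8 and 35.9 FPKM in the blank libraries and between 3.33 and 7.90 FPKM in the 6 siRNA libraries, and LINC01134 reached at least 878 FPKM in the OE-LINC01134 libraries and at most 1.11 FPKM elsewhere. The mesenchymal markers VIM, COL1A1, SPARC and RUNX2 were read in every library, while COL1A2 was at or near 0. The sum of the 5 mesenchymal markers was 261 to 399 FPKM in the blank libraries, 130 to 134 with siSRSF1-2, 141 to 246 with siSRSF1-3 and 134 to 346 with OE-LINC01134. The sum of 5 markers of epithelial, blood and endothelial cells was 1.63 to 2.56 FPKM, 1.73 to 2.04, 3.08 to 3.19 and 2.34 to 2.43 in the same order, with CD3E at 0.

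Several libraries stood apart from their groups, which touches the results below. A chi-square of the read counts, divided by its degrees of freedom, would be 1 for libraries that differ by counting noise alone. It was between 2.02 and 2.54 for 5 pairs of the same group: blank replicates 2 and 3, OE-LINC01134 replicates 1 and 3, and the 3 pairs of siSRSF1-2. The next closest pair reached 17.8, and it joined siSRSF1-3 replicate 3 to siSRSF1-2 replicate 1. Blank replicate 1 was closer to OE-LINC01134 replicate 2 (22.9) than to the other blank libraries (38.8 and 39.3). In siSRSF1-3 replicates 1 and 2, the longest of 3 equal length classes of genes had median log2 differences from the blank mean of -0.32 and -0.26, against 0.29 and 0.18 for the shortest class. In replicate 3 these medians were 0.0045 and 0.052. Values without these libraries are given beside the results that they move.

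The members were proposed with results of the siRNA libraries against blank already known, in which CCND1 stood out. Levels and fold changes of both siRNA groups against blank are therefore a description, with no p. The other 4 comparisons share libraries with those 2 and with each other, and none of them is independent of the choice.

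**Figure D1:**
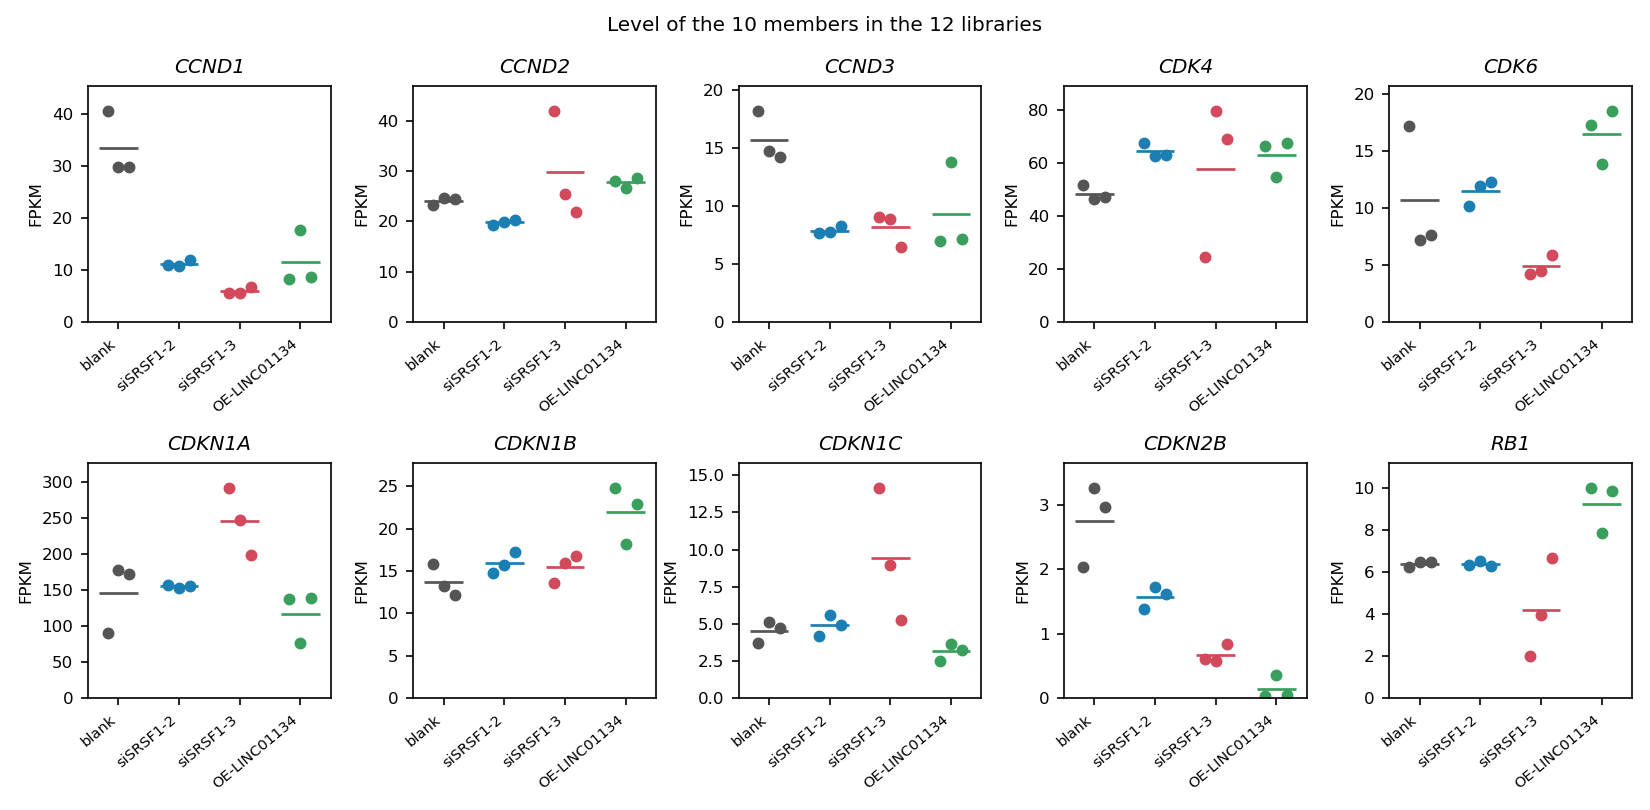
Each panel shows 1 gene, with its FPKM on a linear axis that starts at 0, 1 point per library (replicates 1 to 3 from left to right) and a bar at the mean of the 3 libraries. CCND1, CCND3 and CDKN2B are highest in the blank cells, CDK6 is lowest with siSRSF1-3, and CDKN2B is close to 0 in 2 of the 3 OE-LINC01134 libraries.

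Of the 10 members, 3 were lower in all 9 manipulated libraries than in any blank library: CCND1, CCND3 and CDKN2B. No member was higher in all 9. Over all genes tested, 3.32% were lower in all 9 libraries and 2.99% were higher. The counts of members include the siRNA values known when the genes were chosen, and nothing is read from them. By level in the blank cells, CDKN1A led the members at 147 FPKM, followed by CDK4 (48.2 FPKM), CCND1 (33.3 FPKM), CCND2 (24.1 FPKM) and CCND3 (15.7 FPKM), and CDKN2B was last at 2.76 FPKM. CCND1 was number 3 of the members by mean FPKM in blank cells, number 6 with siSRSF1-2, number 7 with siSRSF1-3 and number 6 with OE-LINC01134.

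CCND1 encodes cyclin D1, on chromosome 11 from 69641087 to 69654474 on the plus strand; the table gives coordinates without naming a build, and the human build is not given in the sources used here. Its level was 40.5, 29.8 and 29.7 FPKM in the blank libraries, 10.99, 10.8 and 11.8 FPKM with siSRSF1-2, and 5.47, 5.57 and 6.76 FPKM with siSRSF1-3. In the OE-LINC01134 libraries it was 8.29, 17.6 and 8.64 FPKM. The blank libraries were the highest and the siSRSF1-3 libraries the lowest, with no overlap between either of them and the rest, while siSRSF1-2 and OE-LINC01134 overlapped. The log2 fold change against blank was -1.55 ± 0.13 (SE, n = 3 + 3) for siSRSF1-2 and -2.46 ± 0.20 for siSRSF1-3, and -1.41 and -2.31 without blank replicate 1. Against blank, OE-LINC01134 gave a log2 fold change of -1.60 ± 0.31, which missed the threshold with a limma adjusted p of 0.0600. Without OE-LINC01134 replicate 2 that fold change was -1.95 (adjusted p = 0.00534), in a fit that called 8.78% of all genes, and without blank replicate 1 it was -1.45 (adjusted p = 0.0555). The fit without blank replicate 2 called 0 of all genes lower, so CCND1 was not called there. Over 18 alternatives CCND1 was called in 4, and its fold change lay between -1.95 and -1.41.

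Between the siRNAs, CCND1 was 1.89-fold lower with siSRSF1-3 than with siSRSF1-2 by the ratio of means, with a log2 difference of -0.91 (95% interval -1.22 to -0.60, limma adjusted p = 0.0581). The difference between siSRSF1-2 and OE-LINC01134 was 0.047, with an interval from -0.65 to 0.75 that covers changes in either direction. The gene LTO1, on the minus strand, runs into the 3′ end of CCND1 and was read at 5.03 FPKM on average over the 12 libraries and at most 5.88 FPKM. The sources used here do not say whether strand was used in counting, and without it reads in the shared stretch cannot be told apart.

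CCND3 (cyclin D3; chromosome 6, 41934933 to 42050357, minus strand) had 18.2, 14.7 and 14.2 FPKM in the blank libraries, 7.63, 7.72 and 8.23 FPKM with siSRSF1-2, and 9.05, 8.90 and 6.47 FPKM with siSRSF1-3. OE-LINC01134 gave 6.99, 13.8 and 7.19 FPKM. All 9 manipulated libraries lay below the blank ones, and among themselves those 3 groups overlapped. The log2 fold changes against blank were -0.98 ± 0.11 for siSRSF1-2, -0.95 ± 0.21 for siSRSF1-3 and -0.81 ± 0.27 for OE-LINC01134, the last with a limma adjusted p of 0.133. Without OE-LINC01134 replicate 2, CCND3 passed the threshold as lower in that comparison (-1.13, adjusted p = 0.00856), where 8.78% of all genes did. Without blank replicate 1 the 3 fold changes were -0.87, -0.84 and -0.70. CCND1 and CCND3 shared their odd libraries: blank replicate 1 was the highest blank library and OE-LINC01134 replicate 2 the highest of its group for both genes.

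CCND2 (cyclin D2; chromosome 12, 4273772 to 4305350, plus strand) did not follow the other D cyclins. It had 23.2 to 24.7 FPKM in the blank libraries, 19.3 to 20.3 FPKM with siSRSF1-2 and 26.8 to 28.7 FPKM with OE-LINC01134, with no overlap between these 3 groups. With siSRSF1-3 it had 41.9, 25.5 and 21.8 FPKM, so 1 library carried the higher mean. Levels with siSRSF1-2 were below those with OE-LINC01134 by 0.49 on the log2 scale (limma adjusted p = 0.00231), which is under the minimum fold. The fold change of siSRSF1-3 against blank was 0.24 (95% interval -0.38 to 0.87). It was -0.031 without siSRSF1-3 replicate 1, -0.014 with each library scaled to its own reads and -0.20 when all libraries were given equal FPKM sums.

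**Figure D2:**
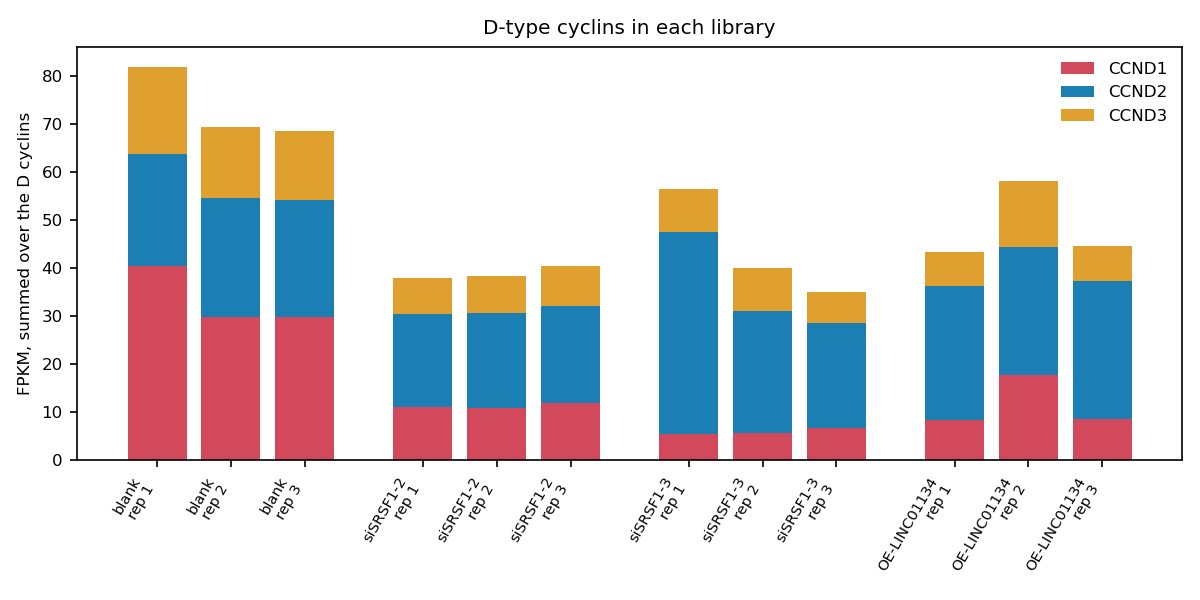
The stacked bars show the FPKM of CCND1, CCND2 and CCND3 in each library, on a linear axis from 0. The total is highest in the blank libraries (68.4 to 81.9 FPKM), and CCND2 is the largest piece in all 9 manipulated libraries.

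Because FPKM are per length, the D cyclins can be summed within a library. Their sum was 73.2 ± 7.54 FPKM (SD, n = 3) in blank cells, 38.9 ± 1.27 with siSRSF1-2, 43.8 ± 11.2 with siSRSF1-3 and 48.7 ± 8.26 with OE-LINC01134. CCND1 made up 45.3 ± 3.57% of that sum in blank cells, 28.8 ± 0.634% with siSRSF1-2, 14.3 ± 4.80% with siSRSF1-3 and 23.0 ± 6.36% with OE-LINC01134. The share of CCND2 went the other way, from 33.3 ± 4.24% in blank cells to 51.0 ± 0.765%, 66.8 ± 6.54% and 58.4 ± 10.7%. Blank replicate 1 and OE-LINC01134 replicate 2 widened the spread of their groups: the other blank libraries had sums of 69.3 and 68.4 FPKM with CCND1 shares of 43.1% and 43.5%, and the other OE-LINC01134 libraries had sums of 43.3 and 44.5 FPKM with CCND1 shares of 19.2% and 19.4%. CCND3 kept a share between 16.0% and 23.7% in every library. A share within a library does not depend on how libraries are scaled to each other. CCND2 was thus the leading D cyclin transcript in the manipulated groups and CCND1 in the blank group.

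CDK6 (chromosome 7, 92604921 to 92836594, minus strand) differed more between groups than CDK4. CDK6 had 17.2, 7.23 and 7.65 FPKM in the blank libraries and 10.2, 11.96 and 12.3 FPKM with siSRSF1-2. With siSRSF1-3 it had 4.20, 4.51 and 5.90 FPKM, and with OE-LINC01134 17.3, 13.9 and 18.5 FPKM. The siSRSF1-3 libraries were below all others. The blank group spanned most of the range, since replicate 1 lay far above the other blank libraries, within the range of OE-LINC01134. CDK6 was called lower with siSRSF1-3 than with OE-LINC01134, at a log2 fold change of -1.75 ± 0.20 (3.40-fold by the ratio of means, limma adjusted p = 0.0169). The limma adjusted p was 0.107, 0.101 and 0.133 without OE-LINC01134 replicate 1, OE-LINC01134 replicate 3 and siSRSF1-3 replicate 2, so CDK6 was not called there. In that order those fits called 24, 18 and 1 of all genes, against 603 with all libraries. The fold change of CDK6 stayed between -1.89 and -1.65 when single libraries were left out. Against siSRSF1-2 the fold change was -1.23 ± 0.17 (adjusted p = 0.0546), and siSRSF1-2 lay 0.52 below OE-LINC01134 (adjusted p = 0.0326, under the minimum fold). With OE-LINC01134 against blank the fold change was 0.74 with all libraries and 1.13 without blank replicate 1, where CDK6 was called higher (adjusted p = 0.0161) in a fit that called 5.49% of all genes. CDK6 has an annotated length of 12260 bases, in the class of long genes that read low in siSRSF1-3 replicates 1 and 2. CCND2, CCND3 and RB1 are in the same class, and CCND2 and CCND3 were higher in those replicates than in replicate 3. The part of that tilt in the level of CDK6 was not tested.

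CDK4, the partner kinase with the higher level, lies on chromosome 12 from 57747727 to 57756013 on the minus strand. It had 46.1 to 51.5 FPKM in the blank libraries, 62.7 to 67.4 FPKM with siSRSF1-2 and 54.6 to 67.4 FPKM with OE-LINC01134. With siSRSF1-3 it had 24.3, 79.4 and 69.1 FPKM, which include both the lowest and the highest value of all 12 libraries. The fold change of OE-LINC01134 against blank was 0.38 ± 0.12 (limma adjusted p = 0.119), and the interval for siSRSF1-3 against siSRSF1-2 ran from -1.43 to 0.77. CDK4 made up between 75.0% and 94.6% of the CDK4 and CDK6 sum in every library. It overlaps the genes of tetraspanin 31 and membrane associated ring-CH-type finger 9 on the other strand, which had no more than 5.72 and 9.32 FPKM.

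Among the CIP/KIP inhibitors, CDKN1A (p21, a target of p53; chromosome 6, 36676460 to 36687339, plus strand) was the most abundant, at 77.7% to 91.3% of the summed FPKM of CDKN1A, CDKN1B and CDKN1C in each library. It had 90.6, 178 and 172 FPKM in the blank libraries, 157, 153 and 156 FPKM with siSRSF1-2, and 292, 247 and 199 FPKM with siSRSF1-3. OE-LINC01134 gave 137, 76.2 and 139 FPKM. In the deposited FPKM all siSRSF1-3 libraries were above all others. The 2 lowest values of the series were those of blank replicate 1 and OE-LINC01134 replicate 2. The log2 fold change of siSRSF1-3 was 1.10 ± 0.32 against OE-LINC01134 (limma adjusted p = 0.0873) and 0.65 ± 0.19 against siSRSF1-2 (adjusted p = 0.0848), so neither was called. The first of these was 0.82 without OE-LINC01134 replicate 2, and it was 1.25 and called without siSRSF1-3 replicate 3, where 27.8% of all genes were. Against blank the fold change was 0.79 ± 0.34 for siSRSF1-3 and 0.14 ± 0.26 for siSRSF1-2, and without blank replicate 1 these were 0.48 and -0.17. The fold changes of CDKN1A with siSRSF1-3 also moved under alternative settings, scalings among them, that omitted no library. There they ran from 0.35 to 0.95 against blank, 0.069 to 0.65 against siSRSF1-2 and 0.57 to 1.25 against OE-LINC01134.

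CDKN1B (p27; chromosome 12, 12715058 to 12722371, plus strand) was highest with OE-LINC01134, at 24.8, 18.2 and 22.9 FPKM. It had 12.1 to 15.8 FPKM in the blank libraries, 14.7 to 17.2 FPKM with siSRSF1-2 and 13.6 to 16.8 FPKM with siSRSF1-3, and these 3 groups overlapped. The fold change of OE-LINC01134 against blank was 0.67 ± 0.16 (limma adjusted p = 0.0791), and siSRSF1-2 lay 0.46 below OE-LINC01134 (adjusted p = 0.0450, under the minimum fold). CDKN1B was thus above the other groups in all 3 OE-LINC01134 libraries without reaching the fold minimum in any comparison.

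CDKN1C (p57; chromosome 11, 2883213 to 2885773, minus strand) had 14.2, 8.97 and 5.27 FPKM with siSRSF1-3 against 3.70 to 5.15 FPKM in the blank libraries, 4.22 to 5.59 FPKM with siSRSF1-2 and 2.53 to 3.68 FPKM with OE-LINC01134. The siSRSF1-3 libraries differed widely among themselves, and replicate 3 fell inside the range of siSRSF1-2. The fold change of siSRSF1-3 against OE-LINC01134 was 1.46 ± 0.37 (limma adjusted p = 0.0708), and it passed the threshold without siSRSF1-3 replicate 3, where 27.8% of all genes did. Under alternative settings that omitted no library it ran from 0.93 to 1.48. The fold change of CDKN1C between siSRSF1-3 and siSRSF1-2 ran from 0.26 to 0.84 under those settings. CDKN1C has an annotated length of 2478 bases, in the middle class, whose median lay 0.091 and 0.11 above the blank mean in siSRSF1-3 replicates 1 and 2.

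The ratio of summed CIP/KIP inhibitors to summed D cyclins, again within a library, was 2.31 ± 0.840 in blank cells, 4.53 ± 0.109 with siSRSF1-2, 6.26 ± 0.571 with siSRSF1-3 and 3.07 ± 1.197 with OE-LINC01134. The siRNA groups did not overlap each other or the blank group, whose libraries reached from 1.34 to 2.83. The OE-LINC01134 libraries (1.69 to 3.80) overlapped the blank ones through OE-LINC01134 replicate 2 alone. The other OE-LINC01134 libraries had ratios of 3.80 and 3.71, above all 3 blank libraries, which had 1.34 in replicate 1 and 2.83 and 2.77 in the others.

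CDKN2B (p15, an INK4 inhibitor of CDK4 and CDK6; chromosome 9, 22002903 to 22009363, minus strand) gave the largest fold change among the members. Its level was 2.04, 3.27 and 2.97 FPKM in the blank libraries, 1.38, 1.73 and 1.62 FPKM with siSRSF1-2, and 0.603, 0.572 and 0.846 FPKM with siSRSF1-3. With OE-LINC01134 it was 0.0340, 0.361 and 0.0517 FPKM, which stand for 4, 40 and 6 reads, against 229 to 394 reads in the blank libraries. The 4 groups did not overlap, and their order was blank, siSRSF1-2, siSRSF1-3 and OE-LINC01134. CDKN2B fell by 3.73 on the log2 scale with OE-LINC01134 against blank (SE 0.51, 18.5-fold by the ratio of means, limma adjusted p = 0.0402). It was also called between siSRSF1-2 and OE-LINC01134, where it was higher with siSRSF1-2 by 2.99 ± 0.50 (adjusted p = 0.00828).

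The first of these calls was lost without single libraries, in fits that called few genes of any kind. The limma adjusted p of OE-LINC01134 against blank was 0.202 without blank replicate 2 or blank replicate 3. It was 0.178 without OE-LINC01134 replicate 1 and 0.179 without OE-LINC01134 replicate 3. In that order those fits called 1, 2, 9 and 4 of all genes, against 149 with all libraries. The fold change of CDKN2B stayed between -4.30 and -3.41 over the 6 omissions. The call between siSRSF1-2 and OE-LINC01134 held without any single library (adjusted p from 0.000103 to 0.0437). Near-identical libraries stayed in each of those fits, so the omissions cannot show whether that call would hold in separate cultures. OE-LINC01134 replicate 2, with 40 reads, lay above the other libraries of its group and below every siSRSF1-3 library. Against blank, CDKN2B was lower by 0.75 ± 0.20 with siSRSF1-2 and by 1.88 ± 0.28 with siSRSF1-3. Between siSRSF1-3 and siSRSF1-2 the fold change was -1.13 ± 0.22 (adjusted p = 0.0725). The antisense gene CDKN2B-AS1, which overlaps CDKN2B, had at most 5 reads in any library.

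Of the other INK4 inhibitors, CDKN2C and CDKN2D lay below every blank library with siSRSF1-2 (log2 fold changes of -0.77 and -0.45, beside -0.75 for CDKN2B), and CDKN2C did so with siSRSF1-3 as well. Of all genes, 49.5% did not overlap with blank in either direction with siSRSF1-2, and 37.2% with siSRSF1-3. Neither CDKN2C nor CDKN2D passed the adjusted p in those comparisons. CDKN2A, which encodes p16, had no more than 1 read in any library and was not tested. CDKN2C (p18) had 13.2, 6.37 and 6.07 FPKM in the blank libraries, 4.24 to 4.93 FPKM with siSRSF1-2, 4.997 to 5.96 FPKM with siSRSF1-3, and 9.34, 13.3 and 9.09 FPKM with OE-LINC01134. It was called lower with siSRSF1-2 than with OE-LINC01134 (log2 fold change -1.14, limma adjusted p = 0.00484), the direction opposite to that of CDKN2B in the same comparison. CDKN2D (p19) was between 5.12 and 9.64 FPKM in all libraries and was called in none of the 6 comparisons, nor was it past the fold minimum in any of them or called by voom on the reads.

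RB1, which encodes the retinoblastoma protein that CDK4 and CDK6 phosphorylate, lies on chromosome 13 from 48303726 to 48599436 on the plus strand. It had 6.26 to 6.49 FPKM in the blank libraries and 6.31 to 6.52 FPKM with siSRSF1-2, 2 groups that could not be separated (log2 difference -0.0023, 95% interval -0.15 to 0.15). With OE-LINC01134 it had 10.03, 7.87 and 9.85 FPKM, all above the blank libraries, at a fold change of 0.51 ± 0.13 (limma adjusted p = 0.0876). With siSRSF1-3 it had 2.01, 3.98 and 6.68 FPKM, a spread from below every other library to above every blank one. The fold change between siSRSF1-2 and OE-LINC01134 was -0.52 (adjusted p = 0.0170), under the minimum fold. Without siSRSF1-3 replicate 3, RB1 was called lower with siSRSF1-3 than with OE-LINC01134 and than with siSRSF1-2, in fits that called 27.8% and 30.6% of all genes. RB1 has an annotated length of 6452 bases, in the class of long genes that read low in siSRSF1-3 replicates 1 and 2. CCND2 (7157 bases) and CCND3 (5802 bases) are in the same class but were higher in those replicates than in replicate 3. The part of that tilt in the level of RB1 was not tested.

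**Figure D3:**
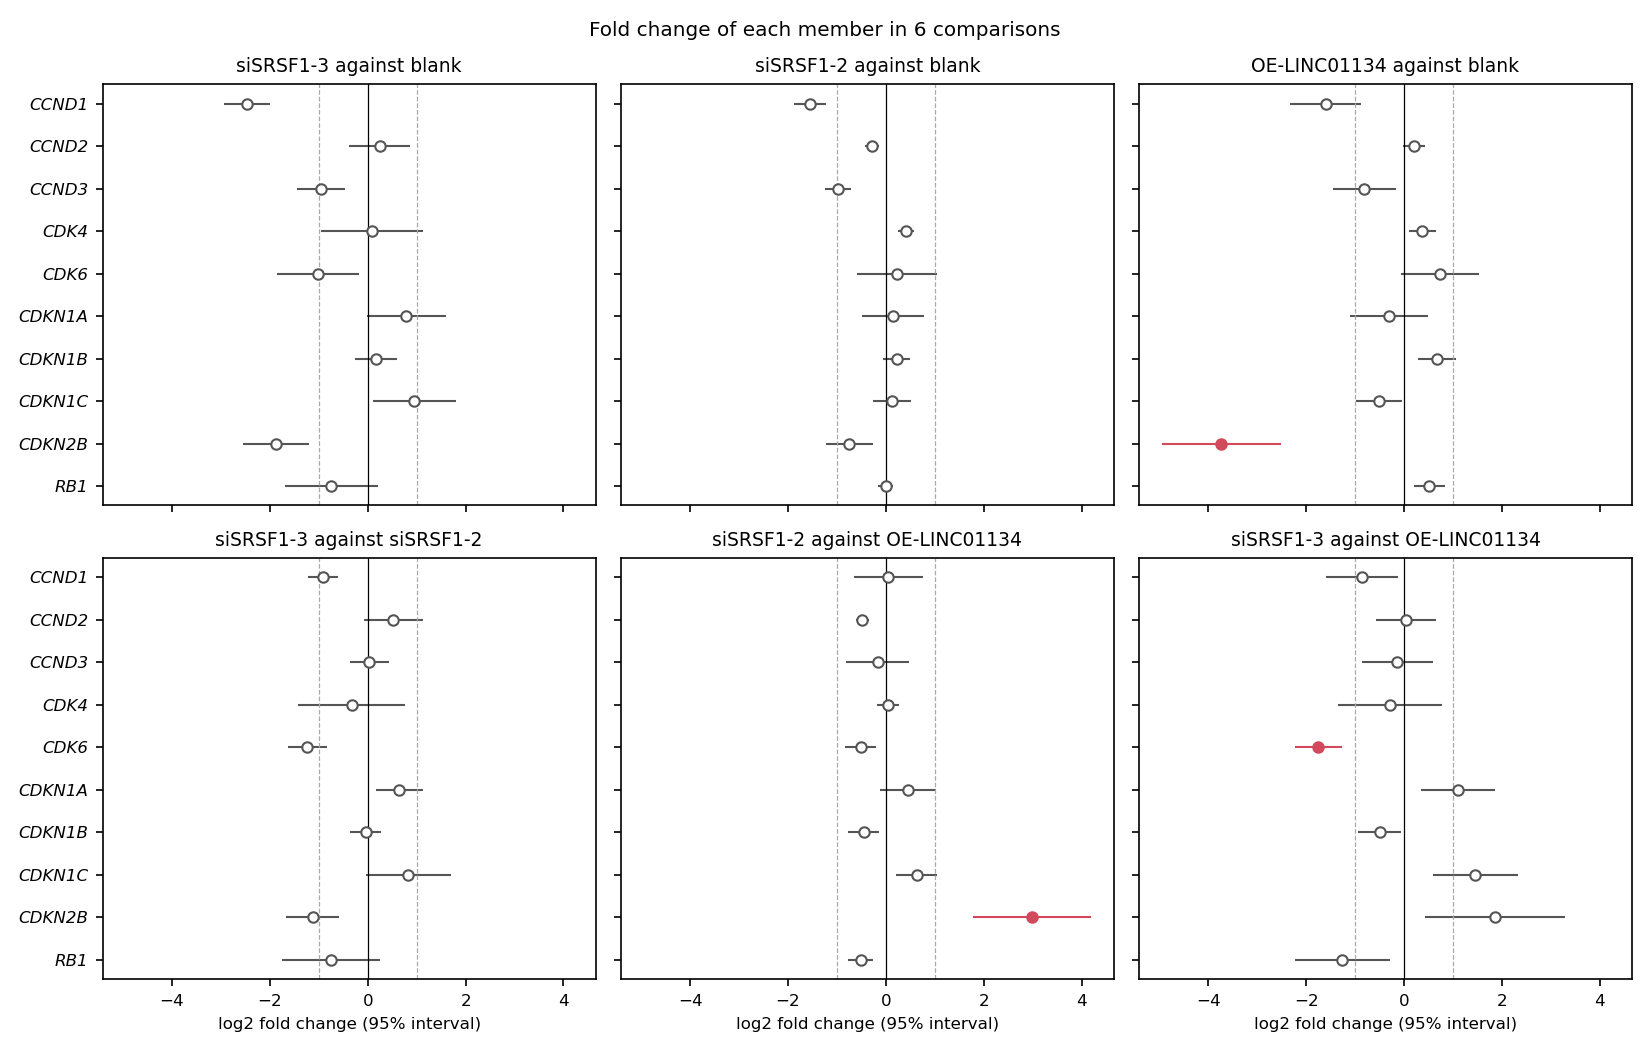
Points show the log2 fold change of each member and bars its 95% interval, in 6 panels for the 6 comparisons, with dashed lines at a log2 fold change of 1 in either direction. The panels of the siRNAs against blank are a description and carry no calls. In the other 4 panels filled red points were called, which are CDKN2B for OE-LINC01134 against blank and for siSRSF1-2 against OE-LINC01134, and CDK6 for siSRSF1-3 against OE-LINC01134.

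Counted over the 10 members, siSRSF1-3 against blank called 2 (CCND1 and CDKN2B, both lower), beside 1.26% of all genes tested, and 6 members did not overlap between the groups, beside 37.2% of all genes. For siSRSF1-2 against blank, 1 member was called (CCND1, lower), beside 4.95%, and 5 did not overlap, beside 49.5%. These counts include the values known when the genes were chosen, and nothing is read from them. For OE-LINC01134 against blank, 1 member was called (CDKN2B, lower), beside 0.850%, and 8 did not overlap, beside 30.6%. Between siSRSF1-3 and siSRSF1-2 limma called 0 members, beside 0.0855%, with 2 members (CDK6 and CDKN2B) past the fold minimum and an unadjusted p of 0.05, and voom on the reads called 1 (CDK6); 5 did not overlap, beside 54.6%. Between siSRSF1-2 and OE-LINC01134, 1 was called (CDKN2B, higher with siSRSF1-2), beside 6.69%, and 7 did not overlap, beside 48.1%. In that comparison 6 members passed the adjusted p alone: CCND2, CDK6, CDKN1B and RB1 were lower with siSRSF1-2, and CDKN1C and CDKN2B were higher. Of all genes, 27.7% passed the adjusted p alone. Between siSRSF1-3 and OE-LINC01134, 1 was called (CDK6, lower), beside 3.44%, and 7 did not overlap, beside 39.0%.

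All of these calls treat the 3 libraries of a group as separate samples. When the near-identical libraries were averaged and counted once, 0 members were called in each of the 6 comparisons, and of all genes between 0 and 8 were called. In that limma fit 364 to 2549 genes passed the fold minimum with an unadjusted p under 0.05. It was added once the data had been seen, and siSRSF1-2 then counts as 1 sample that is assumed to vary like the other groups. The fold changes of CCND1 against blank were then -1.499 for OE-LINC01134 and -2.54 for siSRSF1-3, and that of CDKN2B for OE-LINC01134 was -3.35.

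**Figure D4:**
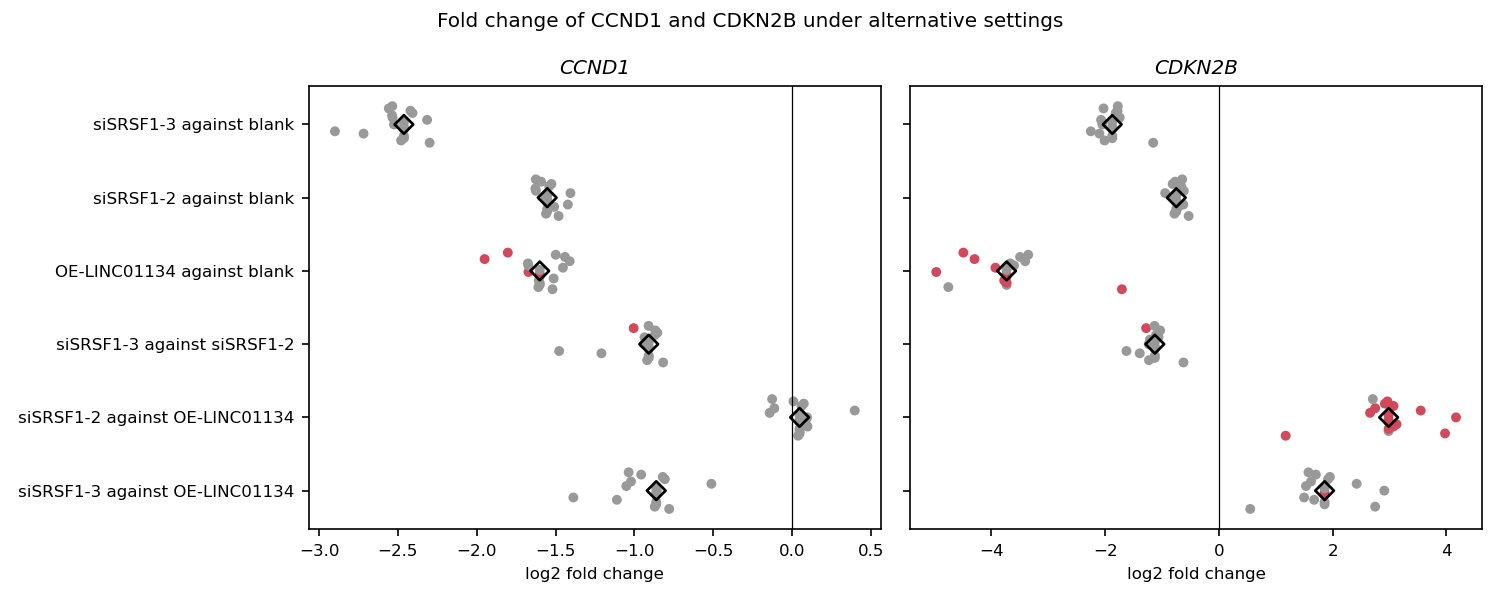
The log2 fold change of CCND1 and CDKN2B in the 6 comparisons is shown on linear axes, with the reported value as an open diamond and each alternative setting or omitted library as a point, red where the gene was called; the siRNAs against blank are a description and show no calls. CCND1 lies below 0 at every setting in 5 comparisons and on both sides of 0 between siSRSF1-2 and OE-LINC01134, and CDKN2B keeps 1 sign in all 6.

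Further along the pathway, cyclin E2 and cyclin A2, which act with CDK2 after cyclin D, and the phosphatase CDC25A were called lower with siSRSF1-2 than with OE-LINC01134. These are 3 of the 5 tested genes of a list of cyclin E and A genes with CDK2 and CDC25A, of which 0 were called higher, beside 2.35% of all genes called lower. The list had a median log2 fold change of -1.51 beside -0.028 for all genes. CCNE2 (cyclin E2) had 0.353 ± 0.0409 FPKM against 1.53 ± 0.113, CCNA2 (cyclin A2) had 17.6 ± 0.380 against 51.5 ± 0.669, and CDC25A, the phosphatase that activates CDK2, had 4.50 ± 0.0687 against 13.5 ± 4.20. The limma adjusted p was 0.00117 for CCNE2, 6.91e-05 for CCNA2 and 0.00720 for CDC25A. The 3 calls were made without any single library as well. Near-identical libraries stayed in each of those fits, so the omissions cannot show whether the calls would hold in separate cultures. CCNE1 (cyclin E1) and CDK2 passed the adjusted p under the minimum fold (log2 fold changes of -0.86 and -0.75), and CCNA1 was too low to be tested, with 2 to 19 reads in the siSRSF1-2 libraries and 0 in each OE-LINC01134 library. With siSRSF1-3 against OE-LINC01134, CCNE2 and CCNA2 were called lower, beside 1.34% of all genes. In that comparison 0 of the list were called without OE-LINC01134 replicate 1, 2 or 3 or without siSRSF1-3 replicate 1 or 2. In that order those fits called 24, 191, 18, 133 and 1 of all genes, against 603 with all libraries. In siSRSF1-2 against blank, CCNE2 and CDC25A were called lower, beside 2.73% of all genes.

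The RB family and E2F genes were split. E2F1 and E2F2, activators of replication genes, and E2F8, a repressor, were called lower with siSRSF1-2 than with OE-LINC01134. These were 3 of the 12 genes tested, beside 2.35% of all genes called lower. E2F1 had 15.3 ± 0.888 FPKM with siSRSF1-2 against 42.1 ± 4.69 (limma adjusted p = 0.000460). E2F2 had 2.48 ± 0.161 FPKM against 8.77 ± 1.64 (adjusted p = 0.00104). The median of the 12 genes was -0.19, and 5 of them were positive, among them E2F7 (0.56) and RBL2 (0.41), which codes for the RB relative p130. RBL1, the gene of p107, was called lower with siSRSF1-3 than with OE-LINC01134 (log2 fold change -1.24, adjusted p = 0.0318), together with E2F8 and TFDP1. In that comparison 1.34% of all genes were called lower. Of the list, 0 were called without siSRSF1-3 replicate 1 or 2 or without any one of the OE-LINC01134 replicates. Those fits called between 1 and 191 of all genes, against 603 with all libraries.

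The list of E2F target genes held 24 genes, all of them tested. Most are genes of replication and nucleotide synthesis, and CDK1, CHEK1, UHRF1 and SLBP have other roles. With siSRSF1-2 against OE-LINC01134, all 24 were lower with no overlap between the groups, beside 48.1% of all genes that did not overlap in either direction. Of the 24, 8 were called lower (MCM5, MCM6, MCM7, PCNA, CDC6, CDT1, TYMS and TK1), beside 2.35% of all genes. Their median log2 fold change was -0.92, beside -0.028 for all genes. PCNA, the sliding clamp of DNA polymerase, had 61.7 ± 1.93 FPKM with siSRSF1-2 and 142 ± 8.77 FPKM with OE-LINC01134 (limma adjusted p = 0.000295). CDC6, a licensing factor, had 7.11 ± 0.227 FPKM against 19.9 ± 0.661 (adjusted p = 0.000151). The count of called genes was between 6 and 10 when any single library was left out, and 0 with the near-identical libraries averaged.

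With siSRSF1-3 against OE-LINC01134, 22 of the 24 were lower and 6 were called lower (MCM4, CDC6, RRM1, POLA1, UHRF1 and GINS1), beside 1.34% of all genes, with a median of -0.61. That count was 0 without OE-LINC01134 replicate 1 or 3 or siSRSF1-3 replicate 1 or 2, in fits that called between 1 and 133 of all genes. It was 1 without OE-LINC01134 replicate 2, where 191 of all genes were called, against 603 with all libraries. Without siSRSF1-3 replicate 3 it was 9, where 27.8% of all genes were called in either direction. OE-LINC01134 against blank called 0 of the 24 by limma, with 0 past the fold minimum at an unadjusted p under 0.05 and 0 by voom, and 21 were positive (median 0.35). In siSRSF1-2 against blank, all 24 were negative and 4 were called lower (CDC6, CDT1, RRM2 and GINS2), beside 2.73% of all genes, with a median of -0.55. Without blank replicate 1, 1 was called and the median was -0.25.

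By library, the median of these 24 genes relative to the blank mean lay at 0.47 in blank replicate 1 and at -0.32 and -0.29 in blank replicates 2 and 3. All 24 were above the blank mean in the first of these and below it in the others. The OE-LINC01134 libraries lay at 0.30, 0.29 and 0.25, the siSRSF1-2 libraries at -0.61, -0.65 and -0.62, and the siSRSF1-3 libraries at -0.30, -0.29 and -0.44. The blank group thus reached from the level of OE-LINC01134 to that of siSRSF1-3. Blank replicate 1, the library with the highest median of these 24 genes, was also the blank library with the most CCND1, CCND3 and CDK6 and the least CDKN1A and CDKN2B. Fewer cycling cells and less of these transcripts in each cell cannot be told apart in bulk RNA.

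**Figure D5:**
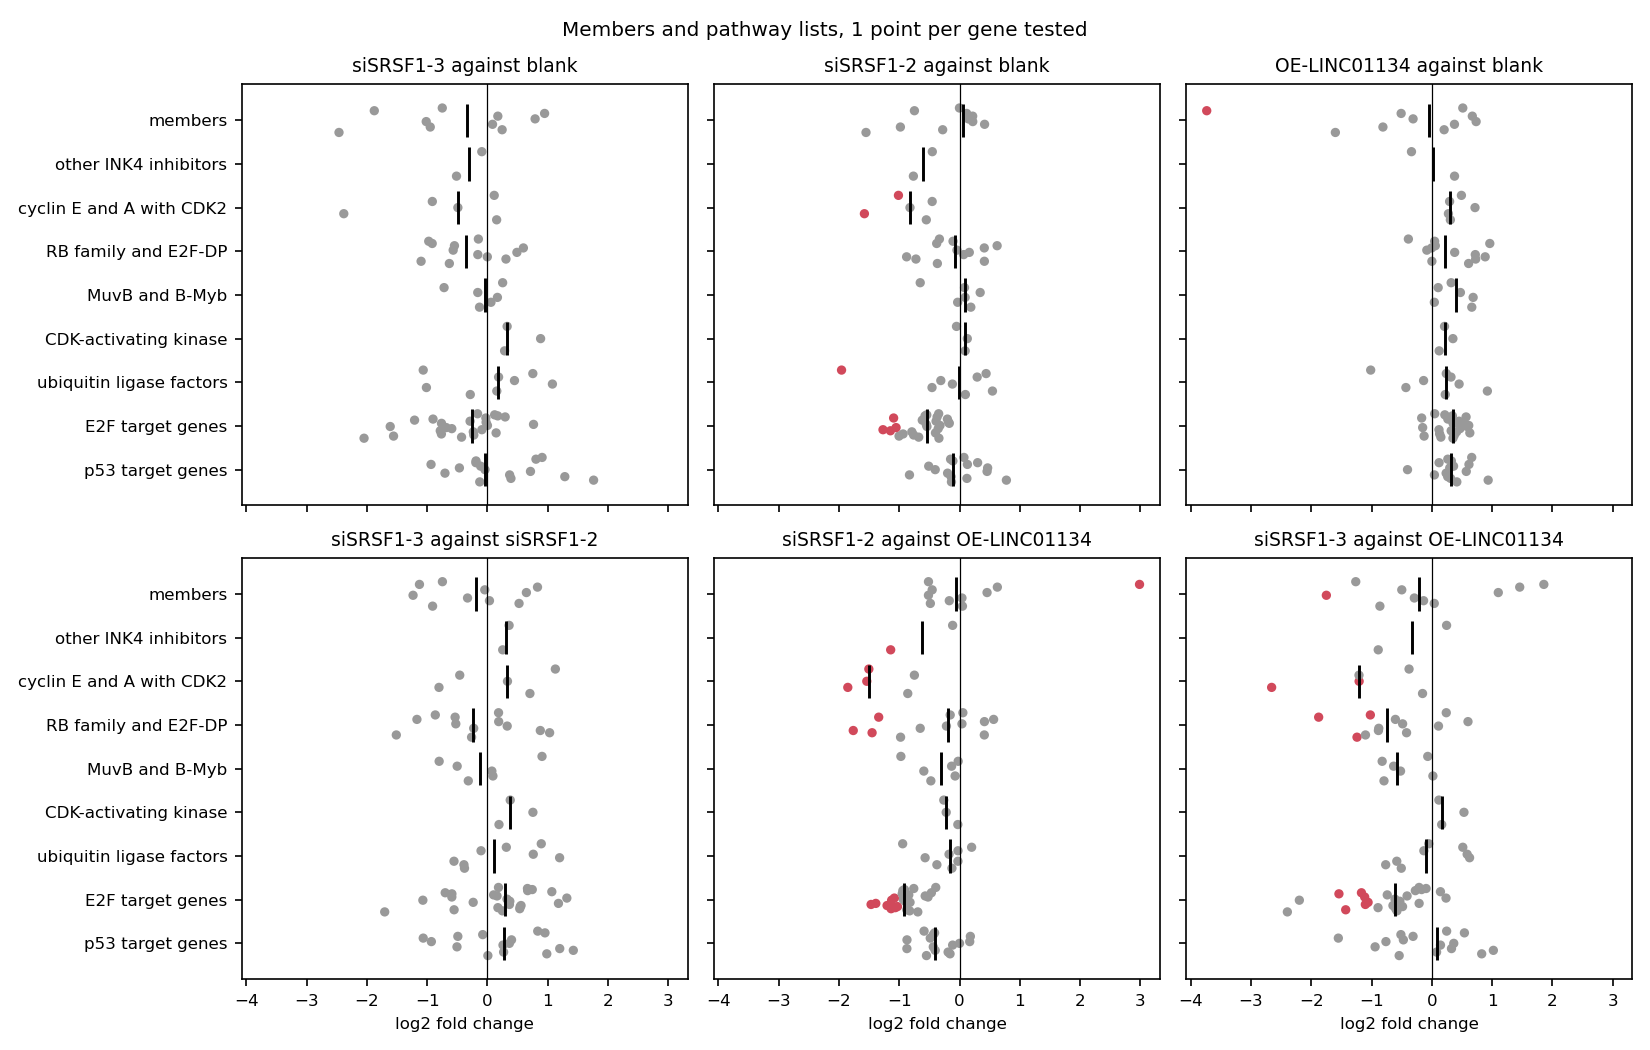
Each point is the log2 fold change of 1 gene, grouped by list, black bars mark the list medians, and red points were called, except that members carry no calls in the panels of the siRNAs against blank. All 24 E2F target genes lie below 0 for siSRSF1-2 against OE-LINC01134, where the median is -0.92, while the p53 target genes hold no red point in any of the 6 panels.

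The p53 target genes other than CDKN1A were called in none of the 6 comparisons by limma (0 of 15 in each). Past the fold minimum with an unadjusted p under 0.05 were 2 in siSRSF1-3 against blank, 2 in siSRSF1-3 against siSRSF1-2, 2 in siSRSF1-3 against OE-LINC01134 and 0 in the others, and voom called 0 in all 6. GDF15, a secreted stress factor, was 29.0 to 99.0 FPKM in the blank libraries and 152 to 270 FPKM with siSRSF1-3. BAX, which promotes apoptosis, had 74.8 ± 2.41 FPKM in blank cells and 194 ± 77.0 FPKM with siSRSF1-3. MDM2 had 10.2 ± 1.09 FPKM in blank cells and 9.33 ± 0.781 FPKM with siSRSF1-3, and XPC had 9.77 ± 1.08 and 6.35 ± 5.10 FPKM. Of the 15 genes, 7 were positive and 8 negative in siSRSF1-3 against blank. The median of the 15 genes was -0.039 in siSRSF1-3 against blank, -0.11 in siSRSF1-2 against blank and 0.31 in OE-LINC01134 against blank.

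The remaining lists held few calls. Of the 6 MuvB and B-Myb genes and the 3 genes of the CDK-activating kinase, 0 were called by limma in any comparison, 0 passed the fold minimum with an unadjusted p under 0.05, and 0 were called by voom. Of 8 ubiquitin ligase factors that act on cyclin D, cyclin E or p27, 1 was called: CRYAB, a chaperone known to aid the turnover of cyclin D1, was lower with siSRSF1-2 (8.66 ± 0.179 FPKM) than in blank cells (34.8 ± 9.97 FPKM). In that comparison 2.73% of all genes were called lower. AMBRA1 and FBXO4, substrate receptors for D cyclins, were called in no comparison. AMBRA1 had group means between 4.28 and 5.91 FPKM, and those of FBXO4 lay between 2.87 and 4.87 FPKM.

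The genes whose pattern over the 12 libraries was most like a member were ranked by Pearson's r of log2(FPKM + 0.1) among 12269 genes, as a description over libraries that share groups. For CCND1 these were ependymin related 1 (r = 0.985), sphingosine-1-phosphate receptor 3 (0.974), lactase like (0.974), the kinase LYN (0.972) and EH domain containing 4 (0.971). For CDKN2B they were semaphorin 7A (0.982), embigin (0.982), mitogen-activated protein kinase kinase kinase 8 (0.979), ADAM metallopeptidase domain 23 (0.968) and tropomyosin 4 (0.967). CDKN1A was followed most closely by serpin family B member 8 (0.974), transmembrane protein 102 (0.973), transmembrane protein 159 (0.967), dynein axonemal heavy chain 14 (0.964) and activity regulated cytoskeleton associated protein (0.963).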

How the data were processed

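The table deposited by the authors holds FPKM of 58735 genes in 12 libraries, with gene lengths and coordinates. Their methods describe poly-T selection and paired-end reads, while the labels name another library kit (SMARTer against NEBNext). Aligner, counter and human build are not given in the sources used here, and the builds in the submitters' processing notes, GRCm38 and mm10, are mouse builds. Multiplied by length, 100% of the values were whole multiples (within 0.01 of a read) of what 1 read is worth in that library, which gave reads per gene. The FPKM carry a scaling between libraries: the implied library size was 0.712 of the library's own reads in siSRSF1-3 replicate 1 and 0.888 in replicate 2.

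Groups came from the sample titles. For each comparison, limma 3.58.1 (lmFit, eBayes with trend, R 4.3.3) was fitted to log2(FPKM + 0.1) of its 3 + 3 libraries, over the 17538 genes whose mean FPKM was 0.5 or more. Adjusted p-values cover all genes tested. The study applied a count model with the same fold minimum; a log-scale test was used here because FPKM are not counts. As an alternative, limma's voom with TMM factors on the recovered reads called between 118 and 1306 genes per comparison. The fit was tested on simulated data. All 10 members, the pathway lists and the 3 genes given with similar patterns were named by a written rule, and members and lists were chosen with earlier results of these data known. Any listing of a member among the study's own lowered genes would not be independent evidence. Other pseudocounts, filters, scalings, fits and omitted libraries were tried. No sequence is shown, since a human reference was not used here.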

Additional observations from a re-analysis of the deposited data

How the results depend on the processing

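Of 60 fold changes of members, 43 kept their direction under every alternative and 17 did not; the cause was not tested except where fewer samples or another scaling define the alternative. Scaling moved the median of all genes in siSRSF1-3 against blank from -0.011 to -0.26 (each library's own read total) or -0.44 (FPKM rescaled to the same sum), and to -0.32 or -0.58 against siSRSF1-2 and -0.27 or -0.54 against OE-LINC01134. For siSRSF1-3 against blank, own totals and equal sums gave -0.014 and -0.20 for CCND2, -0.17 and -0.36 for CDK4, and -0.084 and -0.27 for CDKN1B. Against siSRSF1-2 they gave -0.27 and -0.54 for CCND3, and equal sums gave -0.051 for CCND2. Against OE-LINC01134 they gave -0.21 and -0.49 for CCND2. RB1 in siSRSF1-2 against blank was 0.042 and 0.13, and 0.0063 with near-identical libraries averaged, where CCND1 in siSRSF1-2 against OE-LINC01134 was -0.13.

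Leaving out 1 library gave, for siSRSF1-3 against blank, -0.031 to 0.44 for CCND2 and -0.23 to 0.62 for CDK4. For siSRSF1-2 against blank it gave -0.0016 to 0.62 for CDK6, -0.17 to 0.31 for CDKN1A, -0.017 to 0.22 for CDKN1C and -0.019 to 0.0082 for RB1. For siSRSF1-3 against siSRSF1-2 it gave -0.049 to 0.19 for CCND3, -0.65 to 0.21 for CDK4 and -0.10 to 0.043 for CDKN1B. For siSRSF1-2 against OE-LINC01134 it gave -0.14 to 0.40 for CCND1, -0.34 to 0.15 for CCND3 and -0.059 to 0.093 for CDK4. For siSRSF1-3 against OE-LINC01134 it gave -0.24 to 0.23 for CCND2, -0.30 to 0.18 for CCND3 and -0.61 to 0.24 for CDK4.

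The number of members called in siSRSF1-3 against blank (2) was 1 with a pseudocount of 0.01, without a filter or with own totals, 0 with equal sums, and 0 to 4 without single libraries, the 4 without siSRSF1-3 replicate 3 (23.9% of all genes). In siSRSF1-2 against blank (1) it was 5 with no minimum fold (26.8%) and 1 to 2 without single libraries. In OE-LINC01134 against blank (1) it was 0 with a pseudocount of 0.01 or no filter, 2 with 1 fit over all 4 groups (3.93% of all genes) or voom (1.74%), 4 without both blank replicate 1 and OE-LINC01134 replicate 2 (13.9%), and 0 to 3 without single libraries. In siSRSF1-3 against siSRSF1-2 (0) it was 1 with a pseudocount of 1, 1 fit over all groups (15.6%) or voom (0.673%), and 0 to 5 without single libraries, the 5 without siSRSF1-3 replicate 3, where 30.6% of all genes were called. In siSRSF1-2 against OE-LINC01134 (1) it was 0 without a filter, 6 with no minimum fold (27.7%) and 1 without any single library. In siSRSF1-3 against OE-LINC01134 (1) it was 0 without a filter or with equal sums, 5 with 1 fit over all groups (17.6% of all genes), and 0 to 4 without single libraries, the 4 without siSRSF1-3 replicate 3 (27.8%). With near-identical libraries averaged it was 0 in all 6.

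Most libraries with the same replicate number did not deviate together (18 correlations from -0.081 to 0.21, of which 2 were over 0.1). Those 2 were between siSRSF1-3 and OE-LINC01134, at 0.19 for replicate 2 and 0.21 for replicate 3. Libraries with different numbers lay between -0.22 and 0.12 there. The siSRSF1-2 libraries hardly differed among themselves, so the check cannot exclude that the numbers pair the samples. With the replicate block, 0 members were called in siSRSF1-3 against blank, 0 in OE-LINC01134 against blank and 0 in siSRSF1-3 against siSRSF1-2, and 1 in each of the others. The 4 reads of CDKN2B in OE-LINC01134 replicate 1 set the limit that depth places on its level.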
